A study of Drosophila melanogaster with 14 samples.

Results

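Among the transcripts measured in Drosophila heads, 82 probe sets had a daily rhythm with its peak between the late night and the early morning in both fmn and control (w1118) flies. A probe set was taken when its mean signal over all 14 arrays was at least 100, when a 24 h cosine and sine fitted to the log2 signal gave an amplitude of at least 0.3 and an R2 of at least 0.7 in each genotype, when the peaks of the genotypes lay within 3 h of each other, and when the control peak lay from zeitgeber time (ZT) 20 through ZT 24 to before ZT 2. The amplitude is the distance on the log2 scale from the daily mean to the peak, and R2 is the share of the variation over the 7 times that the fit takes up. Transcripts of per, tim, Clk, cyc, vri, Pdp1, cwo and cry were left out. These 82 were 0.939% of the 8732 probe sets with a mean signal of at least 100, out of 18769 on the array. Of them, 74 named a single gene, 2 named several and 6 named none, and together they covered 72 single genes, as pyd and fru were each represented by 2 probe sets. The probe sets were thus chosen by their amplitude, fit, peak and mean signal on these arrays, and those values are given below as a description, without a test.

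The fmn (fumin) flies carry a mutation of the dopamine transporter gene DAT, were isolated in a y w stock and were then backcrossed over 5 generations to w1118, so both genotypes carry the white mutation. Both were kept in cycles of 12 h light and 12 h dark, with lights on at ZT 0, and were frozen every 4 h from ZT 0 to ZT 24. Each of the 7 fmn arrays and 7 control arrays holds RNA from 1 pool of approximately 400 male and female heads, so every time point stands for 1 array per genotype, and ZT 24 falls at the same phase as ZT 0. The flies had gone through 4 light cycles before they were frozen. The methods name flies 2 to 4 days old, but only for males, and these pools held both sexes.

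In the fly clock, CLK and CYC switch on per and tim from the day into the early night, and the proteins PER and TIM then shut this step down during the night. VRI and PDP1 act in turn on Clk, whose RNA runs opposite to per and tim. Transcripts with a peak around dawn therefore belong to the side of the daily cycle on which Clk lies, and those known from fly heads include e (ebony) and the detoxification gene Ugt35B1. In a light and dark cycle, a daily change can come from the clock or from the light itself.

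The deposited DAT signal was 1.43 to 14.5 on the fmn arrays and 471 to 619 on the control arrays, low in every pool labelled fmn. All listed markers of photoreceptors, neurons and glia had a signal of at least 100 on every array. Transcripts of other organs stood out on 3 arrays. Out of 20 markers of the male reproductive organs (testis, accessory gland), 17 had a signal of at least 100 on the fmn array of ZT 4 and on the control array of ZT 0, with summed signals of 6187 and 6331 against 266 to 500 on all others. Ovary markers summed to 6309 on the fmn array of ZT 8 against 545 to 827 on all others, and gut enzyme markers to 5116, 14314 and 6921 on the fmn arrays of ZT 4 and ZT 8 and the control array of ZT 0 against 826 to 1131 on the other 11. On the fmn array of ZT 12, neuron markers lay a median of 0.44 below the other fmn arrays on the log2 scale. On the control array of ZT 24 they lay 0.27 below the other control arrays. Their summed signals on these arrays were 5141 and 5211. The rule and the fits between genotypes were also run without the 3 arrays on which other organs showed, and without the fmn array of ZT 12.

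The median profile of the dawn probe sets was nearly the same in both genotypes. Relative to each probe set's own mean, the median log2 signal in fmn heads was 0.34, -0.06, -0.41, -0.43, -0.08, 0.37 and 0.35 at the 7 times in order from ZT 0 to ZT 24, against 0.32, -0.05, -0.37, -0.48, -0.09, 0.35 and 0.33 in control heads. High levels thus spanned ZT 20 to ZT 0, and low levels ZT 8 and ZT 12. For 79 of the 82 probe sets, the highest array of each genotype was at ZT 20, 24 or 0. The lowest array was at ZT 8 for 34 probe sets and at ZT 12 for 42 in fmn, and at ZT 8 for 19 and at ZT 12 for 52 in control. The ratio of the highest to the lowest array had a median of 1.97 in fmn and 1.96 in control and reached 2-fold in 40 and 39 probe sets. Where the lowest signal was under 100, it was set to 100, so that 9 of these ratios in fmn and 5 in control are lower bounds.

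**Figure D1:**
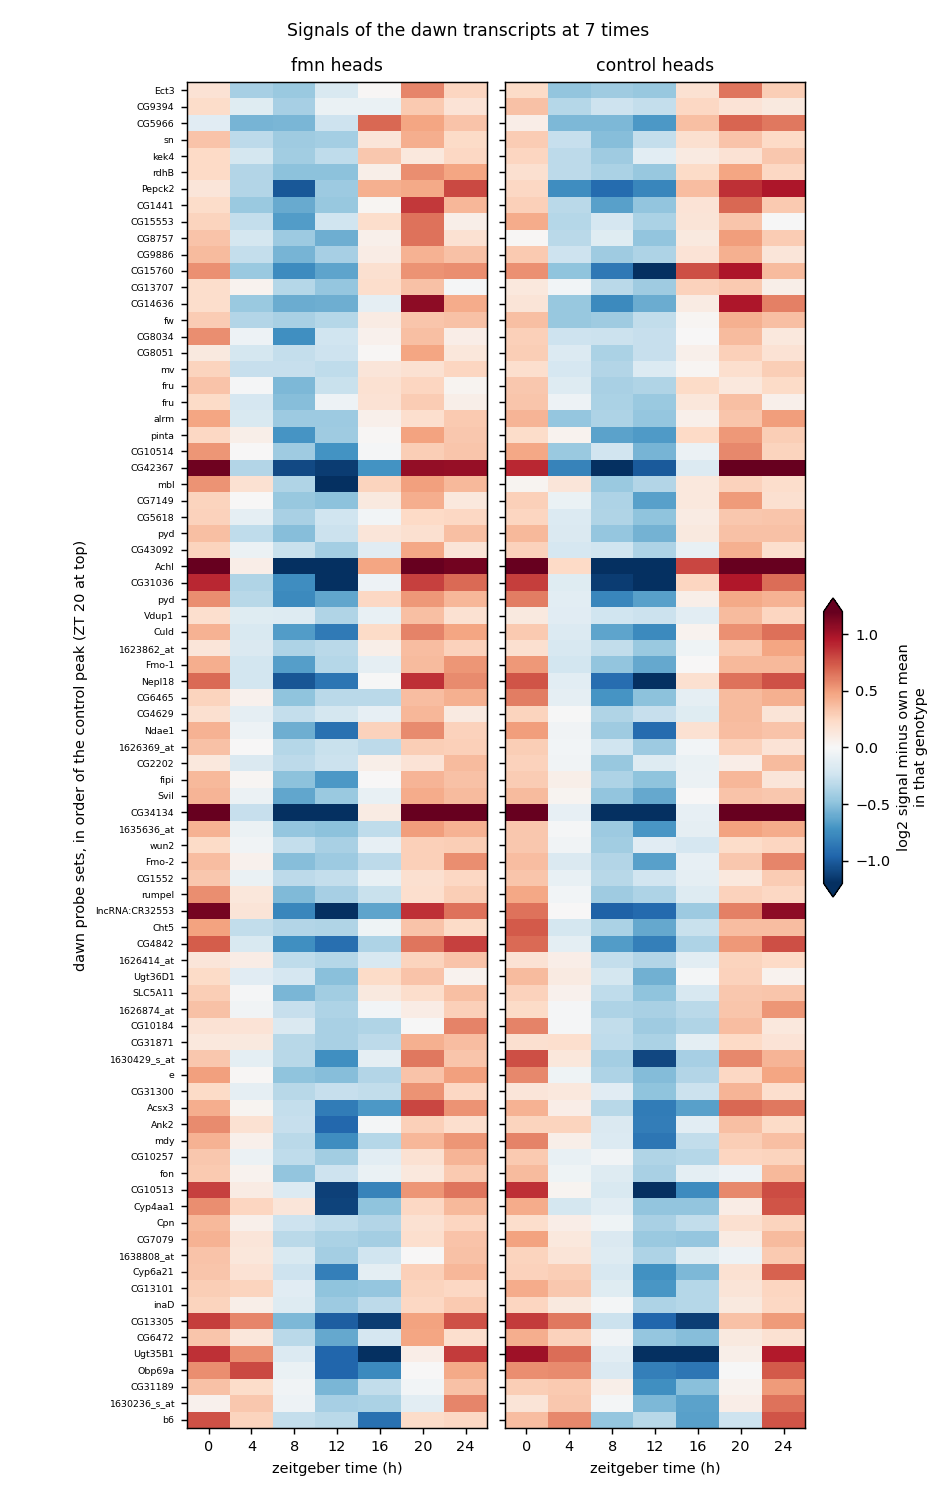
Log2 signal of each of the 82 dawn probe sets (rows, by gene name or probe set, in order of the control peak from ZT 20 at the top to ZT 2 at the bottom) at 7 zeitgeber times (h), minus its own mean in that genotype, in fmn heads (left) and control heads (right), 1 array per column. Red is above and blue below the mean, with colours saturating at the ends of the scale; most rows are lowest at ZT 8 or ZT 12 and highest from ZT 20 to ZT 0 in both panels.

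The control peaks were not spread evenly over the window. In control, 39 peaks fell from ZT 20 to before ZT 22, 28 from ZT 22 to before ZT 24 and 15 from ZT 0 to before ZT 2, so most lay in the last hours of the dark. In fmn the same windows held 40, 26 and 10 peaks, and 6 peaks lay outside them. The 39 probe sets of the early window were already above their daily mean at ZT 16 (median 0.07 in fmn and 0.12 in control) and below it at ZT 4 (-0.21 and -0.20). The 15 probe sets of the latest window had the opposite flanks, with -0.41 in fmn and -0.51 in control at ZT 16 and 0.22 and 0.29 at ZT 4. With 1 array every 4 h, these differences rest on the arrays of ZT 16 and ZT 4.

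The largest amplitudes were those of CG34134 and Achl. For CG34134, to which no role is given here, signals of 7160, 1778, 390, 309, 2310, 8093 and 7603 at ZT 0 to ZT 24 in fmn stood against 8313, 2292, 538, 277, 2285, 8833 and 9179 in control. The highest array was 26.2-fold above the lowest in fmn and 33.2-fold in control. Its amplitude was 2.56 ± 0.13 with a peak at ZT 21.8 ± 0.208 h in fmn and 2.57 ± 0.19 with a peak at ZT 22.2 ± 0.311 h in control (fit ± SE, 7 arrays each). Signals differed between genotypes far less than between times. Achl (achilles), known for its rhythm in neurons and for its effect on immune genes, had 633, 245, 29.3, 53.4, 322, 903 and 518 in fmn against 526, 248, 28, 26.6, 367, 916 and 565 in control. Both genotypes were under 100 at ZT 8 and ZT 12, so the daily change was at least 9.03-fold in fmn and at least 9.16-fold in control. The amplitudes of 2.38 ± 0.28 and 2.62 ± 0.39 include these dim values.

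**Figure D2:**
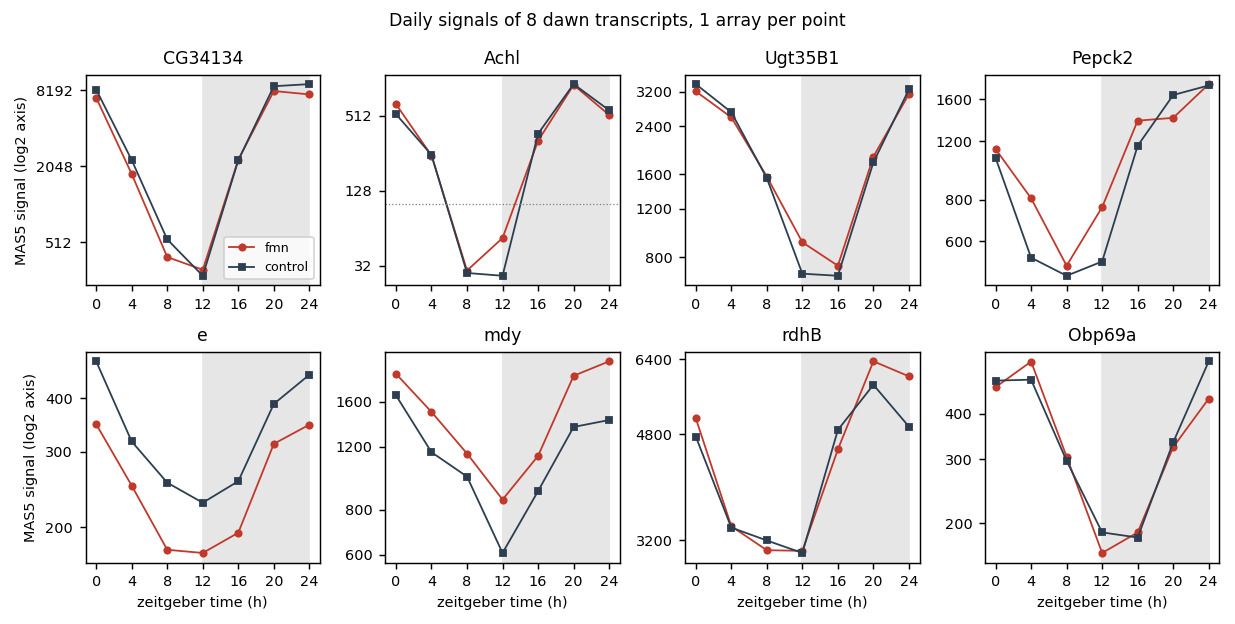
MAS5 signal (log2 axis, a different range in each panel) against zeitgeber time (h) for 8 dawn transcripts, with 1 array per point, fmn in red circles and control in dark squares; grey marks the dark phase and the dotted line in the Achl panel a signal of 100. The courses of CG34134, Ugt35B1 and Obp69a lie close to each other, Achl differs most at ZT 12 (53.4 in fmn and 26.6 in control), e lies lower and mdy higher in fmn at all 7 times.

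An amplitude of at least 1 in both genotypes was reached by 6 probe sets, and of at least 0.5 by 31. Next in order was CG42367, with no role given here, at 727, 254, 153, 147, 197, 673 and 668 in fmn and 747, 228, 144, 198, 356, 911 and 1015 in control. Its peak was at ZT 22.5 ± 0.519 h in fmn and ZT 21.3 ± 0.482 h in control, with higher control signals at ZT 16, 20 and 24. CG31036 and the long non-coding RNA lncRNA:CR32553 had amplitudes of 1.05 ± 0.12 and 1.18 ± 0.13 in fmn, against 1.22 ± 0.13 and 1.0 ± 0.10 in control. Nepl18, a member of the neprilysin family of peptidases, reached 1988 at ZT 20 in fmn with a low of 531 at ZT 8, while control Nepl18 reached 1462 at ZT 24 with a low of 344 at ZT 12. The fit took up nearly all of its variation in fmn (R2 0.995). Among those that followed were CG13305, CG15760, CG10513 and CG4842, with amplitudes from 0.77 to 1.05 in fmn and from 0.82 to 1.11 in control.

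CG10513 belongs to a family of proteins resembling ecdysteroid kinases, and 2 other members of that family lay beside it. CG10513 had 1642, 997, 828, 428, 532, 1341 and 1455 in fmn against 1656, 922, 792, 357, 535, 1344 and 1552 in control. CG10514 is its direct neighbour on 3R and CG31300 lies 2 coding genes away. Their amplitudes were 0.88, 0.55 and 0.39 in fmn and 0.98, 0.52 and 0.34 in control. Their control peaks spanned ZT 21.3 (CG10514) to ZT 0.0267 (CG10513). Other neighbours were CG31189 and CG7079, of the family of takeout, on 3R with 1 coding gene between, CG8034 and CG8051, which resemble monocarboxylate transporters, side by side on X, CG34134 and SLC5A11 on 2L with 3 between, and CG10257 and Cyp6a21 on 2R with 6 between. Cross-hybridization between probe sets of related neighbours was not examined. By arm, 23 of the 72 genes (31.9%) lay on 3R, which holds 25.0% of the 7159 mapped genes with a mean signal of at least 100. The other shares were 15.3% against 16.6% on X, 19.4% against 18.1% on 2L, 18.1% against 20.5% on 2R and 15.3% against 19.1% on 3L, and no dawn gene lay on 4.

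Enzymes that make compounds water soluble were represented by 2 of the 14 UDP-glycosyltransferases with a mean signal of at least 100. For comparison, 1.0% of all 7178 genes with such a signal were in the dawn group. These shares rest on the rule and carry no test. Ugt35B1 had 3213, 2583, 1571, 906, 744, 1858 and 3140 in fmn against 3412, 2696, 1551, 696, 684, 1771 and 3263 in control. The peak followed lights on, at ZT 1.68 ± 0.367 h in fmn and ZT 1.65 ± 0.258 h in control, with amplitudes of 1.06 ± 0.09 and 1.24 ± 0.08. Ugt36D1 had an amplitude of 0.34 in fmn and 0.35 in control, with peaks at ZT 20.7 and ZT 22.9. Ugt36E1, Ugt36F1 and Ugt49B1 had control peaks shortly after the window, at ZT 2.03, ZT 2.22 and ZT 2.32. Ugt36E1 and Ugt36F1 missed another limit of the rule as well, so it was not the peak time alone that left them out. Others were later, as Ugt35A1 peaked at ZT 2.78 in fmn and ZT 3.29 in control, Ugt49C1 at ZT 2.69 and ZT 3.53, and Ugt302C1 at ZT 2.72 and ZT 4.00, with amplitudes of 0.35 to 0.46 in fmn and 0.44 to 0.59 in control.

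Of 53 cytochrome P450 genes, Cyp4aa1 and Cyp6a21 were in the dawn group, and none of 26 glutathione transferases was. Cyp6a21 had 384, 342, 256, 172, 280, 370 and 402 in fmn against 405, 408, 291, 201, 229, 379 and 545 in control. Its lowest array was at ZT 12 in both genotypes, and its peak was at ZT 23.5 in fmn and ZT 0.816 in control. Cyp4aa1 was dim, with signals of 68.8 to 219 in fmn and 104 to 243 in control. The flavin-containing monooxygenases Fmo-1 and Fmo-2, which oxidize nitrogen and sulfur compounds, had amplitudes of 0.57 and 0.52 in fmn and 0.57 and 0.54 in control. In Fmo-1 the lowest array was at ZT 8 in fmn (816) and at ZT 12 in control (717). Odorant-binding proteins contributed Obp69a, 1 of 23. It had 473, 556, 305, 166, 189, 324 and 440 in fmn against 493, 496, 297, 189, 183, 334 and 557 in control, with peaks at ZT 2.03 ± 0.392 h and ZT 1.72 ± 0.198 h. Its fmn maximum at ZT 4 was on an array with transcripts of other organs.

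Among 22 genes of sugar metabolism, only Pepck2, a phosphoenolpyruvate carboxykinase of gluconeogenesis, was in the dawn group. It had 1136, 808, 507, 760, 1382, 1409 and 1779 in fmn against 1069, 536, 473, 522, 1162, 1650 and 1763 in control. The ZT 24 array was above the ZT 0 array in both genotypes, by 0.65 on the log2 scale in fmn and 0.72 in control, which were the largest such differences of the group in each genotype. Without the 3 arrays on which other organs showed, its fmn amplitude was 0.60 with an R2 of 0.663, below the limit, while the control amplitude was 1.09. The related Pepck1 had amplitudes of 0.22 in fmn and 0.19 in control and R2 values of 0.644 and 0.420.

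Of the 15 genes listed for fatty acid synthesis, storage and breakdown, only mdy (midway), the diacylglycerol acyltransferase of triglyceride synthesis, was among them. It had 1917, 1500, 1148, 854, 1131, 1892 and 2077 in fmn against 1669, 1158, 990, 606, 902, 1362 and 1424 in control. Both genotypes were lowest at ZT 12, and the fitted peaks were ZT 23.4 ± 0.418 h and ZT 23.8 ± 0.728 h. Other members with a role in lipid metabolism were picked after their values were seen. Acsx3, of the acyl-CoA synthetase family, had 2562, 1932, 1555, 1055, 1175, 3302 and 2739 in fmn and 2505, 1981, 1482, 1046, 1193, 3016 and 2891 in control. Its signals were lowest at ZT 12 and ZT 16 and highest at ZT 20 in both genotypes. CG1441, a fatty acyl-CoA reductase, had its maximum at ZT 20 as well (2794 in fmn and 2590 in control). CG5966, a lipase, was earlier, with its highest fmn signal of 1779 at ZT 16 and its highest control signal of 1411 at ZT 20, and its fitted peaks were ZT 18.5 ± 0.643 h in fmn, outside the window, and ZT 20.2 ± 0.747 h in control. No member came from 24 genes of amino acid and one-carbon metabolism or from 5 of juvenile hormone.

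Of 6 photoreceptor markers measured, only inaD was in the dawn group, and 4 other members with a known role in the eye, rdhB, pinta, Culd and Cpn, were picked after their values were seen. rdhB, a retinol dehydrogenase of retinal pigment cells that takes part in making the visual chromophore, had 5105, 3376, 3080, 3073, 4529, 6344 and 5989 in fmn against 4758, 3359, 3197, 3048, 4880, 5799 and 4941 in control. Its peak was at ZT 20.9 ± 0.465 h in fmn and ZT 20.3 ± 0.461 h in control. pinta, a retinoid-binding protein of the same pathway, had its maximum at ZT 20 too (1218 in fmn and 1227 in control) with a low of 536 at ZT 8 in fmn and 534 at ZT 12 in control. Culd, which acts in the endocytosis of rhodopsin, ran from 1948 at ZT 12 to 5296 at ZT 20 in fmn and from 2469 at ZT 12 to 6606 at ZT 24 in control. Later in the window were inaD, the scaffold of the phototransduction complex, with a peak at ZT 23.9 in fmn and ZT 1.10 in control, and Cpn (calphotin), a calcium-binding protein of photoreceptors, at ZT 23.9 and ZT 0.458. Their amplitudes were small, 0.37 and 0.36 in fmn and 0.32 and 0.31 in control. Pdh, a photoreceptor dehydrogenase, missed the window with a control peak at ZT 2.24, and its fmn peak was at ZT 0.783.

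The gene e (ebony) encodes the glial enzyme that joins beta-alanine to histamine, the photoreceptor transmitter, and to dopamine. It was the only member among 8 genes of histamine and beta-alanine recycling. The signals of e were 348, 250, 177, 174, 194, 313 and 347 in fmn against 488, 317, 254, 228, 256, 388 and 454 in control. At each time the fmn array was the lower one. Its amplitude was 0.55 ± 0.05 with a peak at ZT 23.1 ± 0.355 h in fmn and 0.53 ± 0.06 with a peak at ZT 23.4 ± 0.50 h in control. The hydrolase tan (t), which splits the product of ebony, fell just short of the rule with an R2 of 0.693 in fmn and 0.843 in control, amplitudes of 0.46 and 0.43, and peaks at ZT 1.68 and ZT 1.78. Hdc, ine, ort, CarT and Vmat had amplitudes of at most 0.20 in fmn and 0.18 in control.

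The 4 listed glia markers contributed no member. The members described next have known roles in glia, transport or the shape of cells and were picked after their values were seen. alrm (astrocytic leucine-rich repeat molecule), a marker of astrocyte-like glia, had 1501, 953, 796, 795, 1127, 1243 and 1342 in fmn against 1418, 773, 824, 772, 1116, 1343 and 1509 in control. The sodium-coupled transporters rumpel, which is glial, and SLC5A11, a sugar sensor, had amplitudes of 0.48 and 0.44 in fmn and 0.42 and 0.41 in control. Ndae1, a sodium-driven anion exchanger, had an amplitude of 0.67 in fmn and 0.61 in control, and its second probe set missed the rule only by an amplitude of 0.298. Of the genes of the cytoskeleton and junctions, pyd (the ZO-1 homolog) had 664, 359, 266, 294, 538, 647 and 596 in fmn against 889, 532, 338, 369, 608, 796 and 773 in control, and Svil (supervillin) had 1 probe set in the group while another missed the rule by its R2. sn (fascin), which bundles actin, had amplitudes of 0.49 in fmn and 0.46 in control, and Ank2 (ankyrin) of 0.55 and 0.47. In such bulk samples, fewer cells of a type cannot be told apart from less RNA per cell.

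Several genes had further probe sets, which target other parts of the same gene. Altogether 24 other probe sets belonged to 10 of the 72 genes. For pyd, a further probe set had amplitudes of 0.79 in fmn and 0.60 in control but peaks at ZT 23.6 and ZT 19.9, and another had 0.20 and 0.19 with peaks at ZT 20.3 and ZT 20.4. For mbl (muscleblind), a splicing factor, another probe set had 0.79 and 0.45 with peaks at ZT 22.8 and ZT 18.8. Further mbl probe sets, with mean signals of 181 and 206, had amplitudes of 0.83 and 0.35 in fmn but only 0.15 and 0.17 in control. One Ank2 probe set had only 0.06 and 0.04, so the daily change of a gene differed between its probe sets.

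Amplitudes were similar between the genotypes over the group as a whole. The median amplitude was 0.49 in fmn and 0.49 in control, the ratio of fmn to control had a median of 1.0 and a range from 0.698 to 2.39, and 41 probe sets had the larger amplitude in fmn and 41 in control. The highest ratio was that of mbl, at 0.78 ± 0.25 in fmn and 0.32 ± 0.09 in control. Its signals were 713, 560, 383, 173, 592, 691 and 643 in fmn against 317, 342, 227, 242, 338, 375 and 359 in control, so that the fmn signal was above control at every time but ZT 12. Peaks differed by a median of 0.469 h in either direction, and 64 of 82 lay within 1 h. The fmn peak was the earlier one in 48 and the later one in 34, from 2.70 h earlier (CG6472) to 1.76 h later (CG10184). As the rule bounds the amplitude and the peak distance, these figures describe the probe sets that met it.

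**Figure D3:**
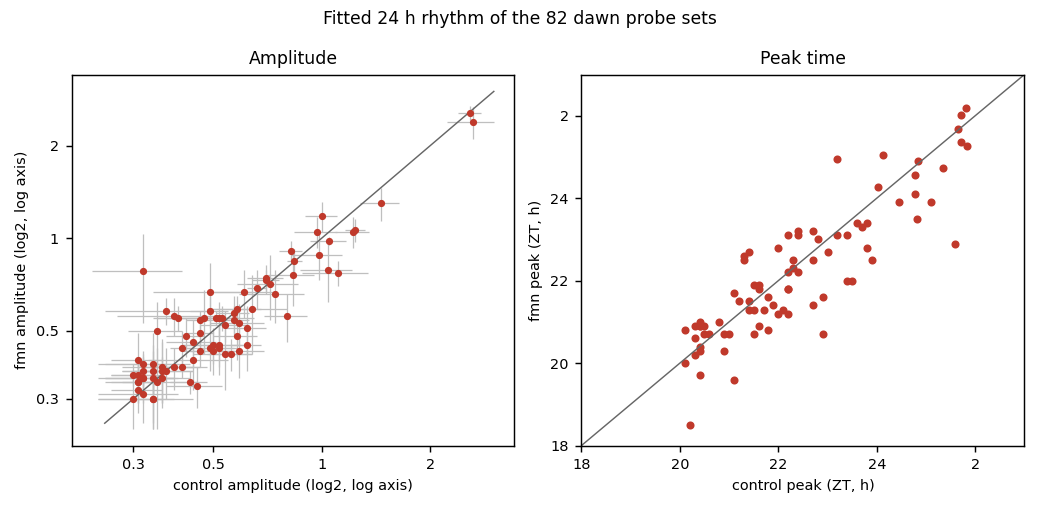
Fitted amplitude (left, log2 units on log axes, bars are ± SE of the fit to 7 arrays) and peak time (right, ZT in h) of the 82 dawn probe sets, fmn on the vertical and control on the horizontal axis, with the line of equality. Points lie on both sides of the line, the outlier at a control amplitude of 0.32 is mbl, and the point at an fmn peak of ZT 18.5 is CG5966.

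The limits were also applied to 1 genotype at a time. Of 117 probe sets that met the amplitude, R2 and peak limits in control, 82 (70.1%) also met the amplitude, R2 and peak distance limits in fmn, against 4.35% of 8722 probe sets that met the amplitude and R2 limits in fmn at any peak time and 1.44% that did so with a peak in the dawn window. For 107 of the 117, the fmn peak was within 3 h of the control peak. Chosen in fmn, 126 probe sets met the limits, and 84 of them (66.7%) met them in control. These shares are a description of the values that the rule used, and the genotypes were not taken as independent repeats. Array deviations of the same time correlated by 0.132 to 0.503, but a daily rhythm common to both genotypes also enters these values. CG4629 (0.30), Vdup1 (0.302) and CG9394 (0.302) had the lowest amplitudes inside the limit, and Invadolysin (0.298), a second Ndae1 probe set (0.298) and Nna1 (0.289) were just outside. By R2, CG15553 (0.707), CG8757 (0.711) and mbl (0.712) were just inside, and Tsp5D (0.694), t (0.693) and rost (0.674) just outside. By the control peak, CG9394 and Ect3 (ZT 20.1) and CG5966 (ZT 20.2) stood just after ZT 20 with dlg1 and CG8419 (ZT 19.7) and M7BP (ZT 19.2) before it, and b6 (ZT 1.84), a probe set that names no gene (ZT 1.82) and Obp69a (ZT 1.72) stood just before ZT 2 with Pdh, CG16959 (ZT 2.26) and CG31321 (ZT 2.32) after it. By the distance of the peaks, CG6472 and Ugt36D1 (2.21 h) were the farthest apart inside with CG10184, and CG13833 was outside with 3.18 h.

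The same phase was measured at both ends of the series. The difference of ZT 24 from ZT 0 had a median of -0.03 in fmn and -0.02 in control on the log2 scale. It was past 0.32 in size in 8 dawn probe sets in fmn (9.76%, against 10.2% of all probe sets with a mean signal of at least 100) and in 15 in control (18.3%, against 11.0%). The control array of ZT 0 is one of those with transcripts of other organs, and its part in this share was not tested. Without the 3 arrays with such transcripts, the dawn rule gave 83 probe sets, 68 of them among the 82, and the original 82, fitted again, had median amplitudes of 0.49 in fmn and 0.49 in control. Besides Pepck2, the 14 that dropped out included Cyp4aa1, CG15553, a probe set each of pyd and fru, kek4, fon and wun2, and of these Cyp4aa1 was lost by the control R2 (0.683) and fon by amplitudes of 0.27 in fmn and 0.29 in control. Without the fmn array of ZT 12, Ugt36D1, CG13707 and Vdup1 dropped out, with fmn amplitudes of 0.27, 0.28 and 0.27.

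The rule used the mean signal over all 14 arrays, but not the difference of the daily mean between genotypes, which could therefore be tested. A limma fit of the 7 fmn arrays against the 7 control arrays, on log2 signals relative to each array's 75th percentile, covered 8641 probe sets, 81 of the 82 dawn probe sets among them (b6 did not pass the filter on dim signals). Called probe sets were those with a log2 difference of at least 0.32 in size whose limma p, adjusted by Benjamini and Hochberg, was under 0.05. No dawn probe set was called higher in fmn, where 3.69% of all were, and 2 of 81 were called lower, where 3.62% were (7.31% in either direction). At an unadjusted limma p under 0.05 there were 4 of 81 dawn probe sets in either direction without a block, where 32.2% of all were. With the block described next there were 43 of 81, where 37.8% of all were. In the fit without a block the daily change counts as error, as the median SE of the difference was 0.19 for the dawn probe sets against 0.07 for all. With the time point as a block, the median SE was 0.06 in both sets, and 12 of 81 dawn probe sets were called, against 8.05% of all: 5 were higher in fmn (4.09% of all) and 7 were lower (3.97% of all). The median difference was -0.03 for the dawn probe sets and -0.02 for all, and the share with a positive difference was 42.0% of the dawn probe sets and 42.8% of all. ZT 0 and ZT 24 both enter these means, which therefore weigh dawn more than other times. Where arrays are left out below, the block fit compares the genotypes only at times that keep both arrays.

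Both fits called CG15553 and Cpn. CG15553 had 156, 106, 81.6, 110, 150, 203 and 136 in fmn against 453, 262, 289, 255, 371, 420 and 331 in control. It was the only dawn probe set whose genotypes did not overlap, which 2.73% of all probe sets did with fmn lower and 2.28% with fmn higher. The difference was -1.37 on the log2 scale (SE 0.19, limma adjusted p = 0.000168; with the block SE 0.09, adjusted p = 1.02e-05). Its rhythm was the poorest fit of the group in control, and it left the group without the 3 arrays named above, where its difference with the block was -1.22 (limma adjusted p = 0.000631).

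Cpn had 5578, 4442, 3575, 3438, 3338, 4834 and 5082 in fmn against 7399, 6754, 6152, 4869, 5200, 7314 and 7688 in control. The fmn array was lower at all 7 times, though the ranges overlap. The difference was -0.60 (SE 0.14, limma adjusted p = 0.00737; with the block SE 0.05, adjusted p = 6.11e-05). Without the 3 arrays, the fit without a block gave -0.53 (limma adjusted p = 0.0618), so the call was lost, and the block fit gave -0.59 (adjusted p = 0.00468). The 6 photoreceptor markers, of which inaD is 1, summed to 74034 to 90687 on the fmn arrays and 91920 to 101038 on the control arrays, and their part in the Cpn difference was not tested. inaD itself was 0.30 lower on the log2 scale (limma adjusted p = 0.159, and 0.00178 with the block), short of the limit of 0.32.

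With the time point as a block, e, pyd, CG14636, CG13305 and lncRNA:CR32553 were called lower as well. e averaged 258 ± 78.1 in fmn and 341 ± 104 in control (SD, n = 7 times each), a difference of -0.42 that lay between -0.56 and -0.31 at the 7 times (limma adjusted p = 0.192 without the block and 0.000182 with it). The study listed e among dopamine-related genes without a difference in fmn, and proposed that their expression had not changed to compensate. The fit without a block did not call e either, but the call with the block departs from that statement. The 4 glia markers summed to 14105 to 16900 in fmn and 16846 to 18552 in control, and their part in the e difference was not tested. pyd averaged 480 ± 170 in fmn and 615 ± 215 in control, a difference of -0.37 (limma adjusted p = 0.359 and, with the block, 0.000828). The other pyd probe set of the group was not called in either fit, with -0.19 (limma adjusted p = 0.523 and, with the block, 0.0408). CG14636 and CG13305 were lower in fmn at all 7 times, by -0.33 and -0.34 (limma adjusted p = 0.493 and 0.602, and 0.00180 and 0.00472 with the block). lncRNA:CR32553 was lower at 6 of 7 times, by -0.36 (limma adjusted p = 0.60, and 0.0391 with the block). Without the fmn array of ZT 12, its difference was -0.13 without the block, where the times of the genotypes were then unequal. With the block it was -0.29 (limma adjusted p = 0.0793), so the call was lost.

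The 5 called higher with the block were mbl, CG10184, Fmo-2, mdy and CG5966. mdy averaged 1503 ± 472 in fmn and 1159 ± 359 in control, and the difference of 0.36 lay between 0.17 and 0.55 at the 7 times (limma adjusted p = 0.316 without the block and 0.00195 with it). Fmo-2 averaged 1023 ± 295 in fmn and 784 ± 234 in control and was higher in fmn at all 7 times, by 0.37 (limma adjusted p = 0.238, and 0.00262 with the block). The 6 fat body markers summed to 68703 to 94197 in fmn and 83604 to 104584 in control, with 5 of them at 100 or more on each array. They include yolk protein genes, and the share of females in the pools was not given. The part of fat body or sex in these differences was not tested. CG5966 was higher by 0.33 (limma adjusted p = 0.416, and 0.0250 with the block), with time differences from 0.06 at ZT 24 to 0.78 at ZT 12. Without the fmn array of ZT 12, the block fit gave 0.25 for CG5966 (limma adjusted p = 0.0398), under the limit of 0.32, so the call was lost. CG10184 was higher at 6 of 7 times, by 0.40 (limma adjusted p = 0.142, and 0.0177 with the block). mbl averaged 537 ± 194 in fmn and 314 ± 57.6 in control, a difference of 0.66 (limma adjusted p = 0.0971, and 0.0151 with the block). Without the fmn array of ZT 12, on which mbl was lowest, the block fit gave 0.84 (limma adjusted p = 3.95e-05). With no block the difference was 0.91 (limma adjusted p = 0.000765), but that fit compares unequal times. Without the 3 arrays on which other organs showed, the block fit called mdy alone of these 5, and e, Cpn, CG14636 and CG15553 of the 7 lower ones, besides CG42367 (-0.58, adjusted p = 0.0179).

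**Figure D4:**
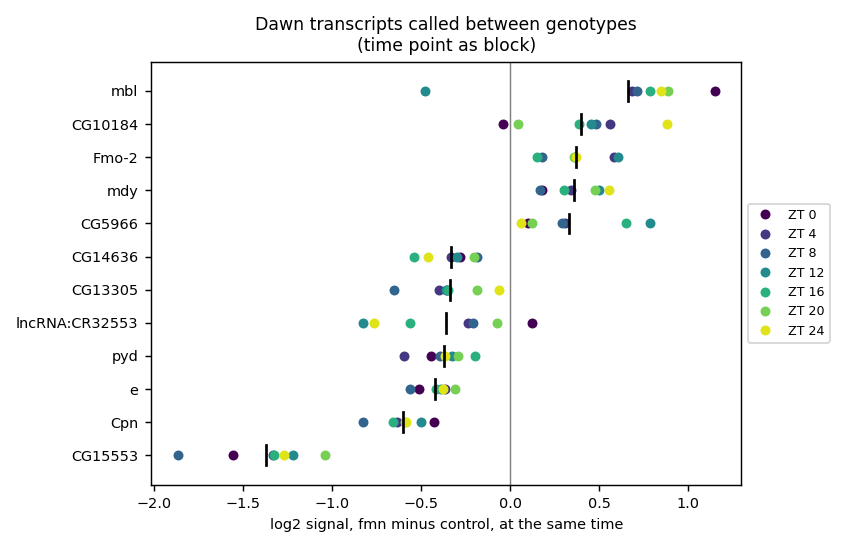
Difference of log2 signal (fmn minus control, each array relative to its 75th percentile) at the same time for the 12 dawn probe sets called with the time point as a block. Each point is 1 time, coloured from ZT 0 to ZT 24, and the black bar is the mean of the 7; mbl at ZT 12 (-0.48) stands on the other side of 0 from its other times.

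Several members with a large daily change were called by neither fit. CG34134 differed by -0.20 (limma adjusted p = 0.919, and 0.0868 with the block), Achl by 0.13 (0.948 and 0.50), Ugt35B1 by 0.04 (0.966 and 0.663), Obp69a by -0.07 (0.914 and 0.403), and Pepck2 by 0.18 (0.770 and 0.183). Nepl18 was higher in fmn at all 7 times, by 0.32 (limma adjusted p = 0.611, and 0.0196 with the block), just short of the limit of 0.32. rdhB, pinta and alrm differed by 0.04, 0.02 and 0.00. DAT lies on 2R, and Cyp6a21, CG10257, Cyp4aa1, CG6472 and mbl were the dawn genes within 250 coding genes of it, of which mbl, at 115 genes, was called. According to the study, the backcross apparently did not make the lines alike at scb, a neighbour of DAT. The study found scb RNA unchanged by RT-PCR, and it traced the low array signal to base substitutions under the probe set. The part of such linked DNA in the mbl difference was not tested. Nor was the part of probe mismatches in any difference given here.

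By the same limits, 214 probe sets were rhythmic in both genotypes, and the dawn window held 82, against 58 in the daytime window (ZT 2 to 8), 43 in the dusk window (ZT 8 to 14) and 31 in the night window (ZT 14 to 20). Median amplitudes in the other windows were 0.43 to 0.47 in fmn and 0.45 to 0.47 in control. With the block, 12 of 58 daytime probe sets (20.7%), 2 of 40 at dusk (5.00%) and 9 of 31 at night (29.0%) were called between genotypes, against 14.8% of the dawn ones, and the differences between windows were not tested. For reference, Clk peaked at ZT 1.02 in fmn and ZT 1.62 in control with amplitudes of 0.87 and 0.80, cry at ZT 4.53 and ZT 4.92, per at ZT 13.2 and ZT 13.1, and tim at ZT 14.6 and ZT 14.4. None of the 16 clock modifiers measured, kinases and phosphatases among them, was in the dawn group. Of 29 transcripts outside the clock that are known to cycle in heads, 4 were in it, namely e, Ugt35B1, Cyp6a21 and Obp69a. That list was drawn up with results of these data known.

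The lists that held dawn genes were read in the same genotype fits. Over all 8641 probe sets tested, 4.09% were called higher and 3.97% lower with the block, and 3.69% and 3.62% without it. The counts of the lists were not tested against these shares. Of the 14 UDP-glycosyltransferases, 3 were higher and 1 lower in fmn with the block (1 and 1 without it), with Ugt35A1 higher and neither dawn member called. Of 51 cytochrome P450 genes tested, 5 were higher and 2 lower with the block (4 and 2 without it), neither Cyp4aa1 nor Cyp6a21 among them. Of the 8 genes of histamine and beta-alanine recycling, 2 were lower with the block, e and Balat, a beta-alanine transporter, and none was called without it. Balat was dim, at 97.2 to 155 in fmn and 114 to 212 in control. Its ZT 24 array differed from ZT 0 by -0.46 in fmn and 0.34 in control. In a block fit over all probe sets, its difference of -0.41 was not called (limma adjusted p = 0.0828). Of 15 lipid genes, mdy was higher with the block and Elovl7, a fatty acid elongase, was lower in both fits, and of 22 genes of sugar metabolism 2 were higher in both, Pepck2 not among them. Of 23 odorant-binding proteins, 4 were higher and 2 lower with the block (3 and 2 without it), Obp69a not among them. Of 28 tested transcripts known to cycle in heads, 4 were higher and 3 lower with the block (2 and 1 without it). Of 6 photoreceptor markers, 1 other than inaD was lower with the block.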

How the data were processed

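Biotin-labeled cRNA from each pool of heads had been hybridized to an Affymetrix Drosophila Genome 2.0 array. The deposited values are the signal intensity of each probe set as the authors obtained it with MAS5, on a linear scale, and the MAS5 version and its scaling target were not given in the sources used here. The 75th percentile of the intensities was 566 to 588 on the fmn arrays and 570 to 578 on the control arrays, and 183 control probe sets were left out. Genes were named from the platform annotation (13647 probe sets name 1 gene, 402 several and 4720 none), with 13544 updated through the RefSeq table of Release 6, which was also used for gene order. The number of arrays limits the precision.

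Rhythms were fitted by least squares to log2 intensities as deposited, with no centring (Python 3.11.15, numpy 2.4.6). Genotypes were compared with limma 3.58.1 in R 4.3.3 on log2 intensities minus each array's 75th percentile, without a block, as in the study's methods, after leaving out probe sets under 100 on at least 7 of 14 arrays, and the fit was tested on simulated data. b6 was read from a fit over all probe sets. Array deviations of the same time point correlated between genotypes by 0.132 (ZT 0) to 0.503 (ZT 4), so time points were taken to pair the arrays, and the block fit is given where it changes a call. A daily rhythm common to both genotypes enters these correlations. Both of these times include an array with transcripts of other organs. As each time point was 1 pool per genotype, p-values measure the spread between these pools, and the differences between times have no replicate.

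The members and gene lists were chosen with earlier results of these data known. The text names the 12 members with the largest amplitudes, those called between genotypes, those in a list, those next to a limit of the rule, and the one with the largest difference of ZT 24 from ZT 0. Other members were named for their known role or position after their values were seen. The alternatives concerned the limits of the rule, the scaling (median, quantile or none), the filter, a pseudocount of 32, the test (the methods' t-test, or cosine and sine as covariates) and the arrays used. The block fits with another scaling or fewer arrays were chosen after seeing the data. Present calls were not used here, and a planned search for motifs in promoters was not run.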

Additional observations from a re-analysis of the deposited data

How the results depend on the processing

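The number of dawn probe sets was 69 to 99 under all but one of the other limits and scalings. With an amplitude of at least 0.4 it was 52. Median scaling gave 69, of which 61 were among the 82. Leaving out each time point of both genotypes in turn gave 69 to 86, with 62 to 77 shared, and 44 of the 82 were kept in every case. The count called between genotypes, 2 without a block, was 12 with the time point as a replicate block (5 higher and 7 lower in fmn) and 11 with cosine and sine as covariates (4 higher and 7 lower). It was 1, and lower, without the 3 arrays on which other organs showed (fmn at ZT 4 and ZT 8, control at ZT 0), where Cpn lost its call. Without the fmn array of ZT 12 it was 3, of which 1 was higher (mbl). In both of these cases the genotypes no longer held the same times. The daily change of dawn probe sets then enters the difference where no block was used. With each time point left out of both genotypes, the count without a block was 2 to 3, with 0 to 1 higher and always 2 lower. The block fit called 10 to 14 with each time point left out (4 to 6 higher and 5 to 8 lower), 11 to 13 under other scalings, and 6 (1 higher) without the 3 arrays named above. For the 12 probe sets called in either fit, no alternative turned the direction. The causes of these changes were not tested. Fewer arrays entered the fits that left some out. Signals under 100 fell below the limit used here, so that the amplitudes of Achl, CG31036, CG15760 and b6 depend on dim values.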

Other observations

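Some probe sets met the limits for dawn in control and missed them in fmn. The largest control amplitudes among them were those of CG15369, with 1.14 in fmn (R2 0.669) and 1.21 in control (R2 0.757), and CG11892, with 0.39 (R2 0.606) and 0.77 (R2 0.733). Epac, an exchange factor activated by cAMP, had amplitudes of 0.30 in fmn and 0.59 in control, with R2 values of 0.621 and 0.958 and peaks at ZT 20.4 and ZT 20.3. Alh (Alhambra) had 0.16 and 0.59, and Balat, a beta-alanine transporter, 0.25 and 0.42. For Mob2, a cofactor of NDR kinases, the fmn amplitude was 0.03 with an R2 of 0.0100 and the control amplitude 0.42 with an R2 of 0.828. These were chosen for a rhythm in control, so a lower amplitude in fmn follows in part from the choice, and the differences were not tested here.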
